A study of Mus musculus with 42 samples.

Results

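The ventromedial hypothalamus (VMH) of fasted mice was compared with that of fed mice across all genes measured. The comparison used every VMH library in the table, 6 from fasted and 6 from fed animals, which are 12 of the 42 RNA-seq libraries deposited for 4 hypothalamic nuclei. All animals were adult wild-type male mice of the C57/BL6 strain. The fed group had food ad libitum and the fasted group had no food for 24 hours before the brains were taken. No transgene and no other treatment is named for either group. The groups shared the handling of the tissue: the nucleus was cut with a laser from frozen brain sections, and a small amount of total RNA was amplified. A captured nucleus holds neurons, glia and vessels, so in such bulk samples fewer cells of a type and less RNA per cell cannot be told apart. The labels number the libraries of each state and do not tie a number to an animal. The authors describe the samples of a nucleus within a group as biological replicates. The p-values of the gene tests measure the spread between libraries, pooled over all 42 of the 4 nuclei.

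The VMH is a nucleus of mostly glutamatergic neurons, many of which carry the nuclear receptor SF1 (Nr5a1). It is known for its part in glucose counterregulation, in energy expenditure and in satiety, and its neurons carry leptin receptor and sense glucose. Fasting is known to lower circulating leptin and insulin and to raise circulating glucocorticoid and ketone bodies, and glucocorticoid acts on cells through a nuclear receptor that binds DNA and switches on a known set of genes.

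Expression was given as RPKM, reads per kilobase of exon scaled to the size of the library. The table held an added count that kept every value above 0, which made it possible to estimate reads and depth (the processing is described with the methods). Estimated depth was 3.83 ± 1.92 M reads (SD, n = 6) in the fasted and 3.2 ± 1.21 M reads (n = 6) in the fed VMH, a difference within the spread between libraries (two-sided exact permutation p = 0.511). The shallowest VMH library had 1.33 M reads and the deepest 6.23 M reads, and the correlation of 2 VMH libraries lay between 0.8905 and 0.9711 over genes. In fed mice, 16 of 17 genes listed as marking the VMH had their highest mean in the VMH among the 4 nuclei, and 15 of the 17 passed the test of the VMH against the other nuclei, beside 5.25% of all genes that were higher there. The exception was Dlk1, which was highest in the paraventricular nucleus (PVN). Nr5a1 averaged 21.8 ± 10 RPKM in the fed VMH and 0.333 to 0.577 RPKM in the other fed nuclei, and Fezf1, a transcription factor of this nucleus, averaged 95 ± 29.8 against 1.09 to 4.24 RPKM. All 9 tested markers of the neighbouring arcuate nucleus (ARC) passed as lower in the VMH than in the mean of the other nuclei, beside 4.57% of all genes. That mean includes the ARC, so the test does not measure ARC tissue in the VMH samples. Otp, on that list, averaged 32.7 RPKM in the fed PVN and 5.67 RPKM in the fed ARC. Of 8 dorsomedial and lateral markers 5 passed as lower, and of 7 paraventricular markers all 7. The library VMH-Fed-1 stood apart, with the highest summed level among the fed libraries of the astrocyte, oligodendrocyte, microglia, endothelial and blood marker lists, so the medians or sums of these lists are also given without it. In the VMH identity list VMH-Fast-1 and VMH-Fast-2 had summed levels of 582 and 556 RPKM, against 835 to 899 RPKM in the other fasted libraries. VMH-Fed-1 and VMH-Fed-2 were the lowest fed libraries, at 758 and 709 RPKM against 817 to 922 RPKM. Libraries 1 and 2 of both states fell in the same inferred batch, described with the methods.

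Changes are fasted minus fed in log2(RPKM + 1) units, each with a standard error (SE), from a limma fit to 33579 genes. A gene was called at an adjusted p (Benjamini-Hochberg, all genes of the fit) under 0.1. At that threshold 44 genes were called, 0.131% of those tested, of which 24 were higher (0.0715%) and 20 were lower (0.0596%) in the fasted VMH. The changes ran from 1.58 for Cdkn1a to -1.31 for Fabp7, and the median change of all genes was 0.0. The genes that rose and could be named were Cdkn1a, BC039966, Mfsd2a, Hif3a, Tekt4, Plin4, Mt2, AI837181, Trit1, Rin2, Bcl6, Rab4a, Gm4886, Myzap, Lrif1, Gprc5d, Gm13420, Rsrp1, Clk1, Gm20528, Mup20 and Rpl21-ps13, and 2 further IDs, ENSMUSG00000084322 and ENSMUSG00000097581, had no symbol. The genes that fell were Fabp7, Ell3, Aqp4, Sptssb, Gm24270, Olfr714, Snx3, Il4, Ubxn2a, Ppp2r5e, Magt1, Rgs4, Ptp4a1, Ddhd1, Hspa5, Qk, Pcdh17, Scd2, Rock2 and Hsp90b1. Without adjustment, 2455 genes (7.31%) had a p under 0.05, 3.75% higher and 3.56% lower. Among the 14467 genes with a mean RPKM of at least 5, 28 were called (0.194%) and 7.98% had an unadjusted p under 0.05. Of the 33579 genes, 28832 were above the value for no reads in at least 1 library, and all 44 calls were among these. The shares of all genes therefore count some genes without reads. Among the 9483 genes with a mean of at least 50 estimated reads, 12 were called higher and 16 lower, and the median change was -0.03. Of these 9483 changes, 4200 were positive and 5280 negative.

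The calls rested on the pooled spread of all 42 libraries, in a fit without a batch term. With the 12 VMH libraries alone 1 gene was called, Mt2, and the count ran from 16 to 64 when each VMH library was left out in turn. It was 16 without VMH-Fed-4, 20 without VMH-Fed-1, 21 without VMH-Fed-2, 23 without VMH-Fast-2 and 26 without VMH-Fast-4. In every one of the 12 fits without 1 library, 8 genes were called: Mt2, Bcl6, Tekt4, Myzap, Clk1, Mup20, Sptssb and Olfr714. Mup20 rested on 0 estimated reads in all fed and 7 in all fasted libraries. Olfr714 rested on 36 and 0 reads, and 22 of the 36 were in VMH-Fed-4. For genes so near the value for no reads, a call that is kept says little about the size or sureness of a change.

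**Figure D1:**
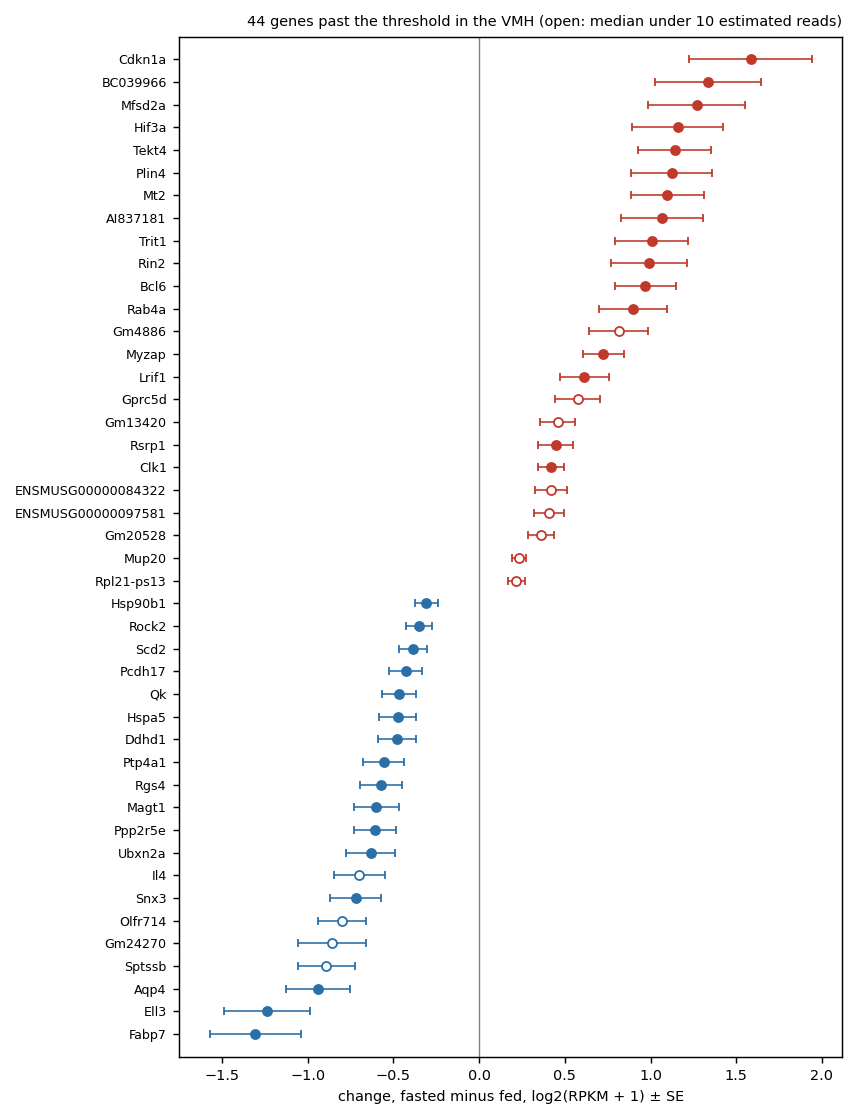
Change of the 44 called genes in the VMH, with genes on the vertical axis and the change from fed to fasted in log2(RPKM + 1) units on the horizontal axis; bars are SE, red marks higher and blue lower in fasted mice, and open circles mark 12 genes with a median under 10 estimated reads in both groups. The largest rise was that of Cdkn1a (1.58) and the largest fall that of Fabp7 (-1.31).

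The gene called with the VMH libraries alone was Mt2, metallothionein 2, a small protein that binds zinc and copper and whose gene is switched on by metals and by glucocorticoid. It lies at chr8:94172664-94173568 on the plus strand of GRCm38. In fed mice Mt2 had a lowest value of 99.1, a median of 118 and a highest of 150 RPKM. In fasted mice the lowest was 211, the median 262 and the highest 292 RPKM. Every fasted library was thus above every fed library, a separation seen in 0.277% of all genes. The mean was 2.14-fold higher, and the change was 1.1 ± 0.21 (SE, adjusted p = 0.0476). Within 3 sets of libraries that the table itself sets apart by shared lowest values, taken here as batches and each with 2 fasted and 2 fed VMH libraries, the change was 1.09, 1.18 and 1.02. A limit is that 73.5% of the exon bases of Mt2 are shared with the overlapping gene Gm45774, so reads of that gene could not be told apart.

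Mt1, the neighbouring metallothionein gene with the same kind of protein, was at 129, 149 and 236 RPKM (lowest, median, highest) in fed mice and at 148, 229 and 263 RPKM in fasted mice. The groups overlapped, with VMH-Fed-4 the highest fed and VMH-Fast-1 the lowest fasted library, and Mt1 did not pass the test (0.48 ± 0.16, adjusted p = 0.357). Mt3, the brain form, changed by -0.17 ± 0.35 (adjusted p = 1), and Mt4, a form of squamous epithelium, had a median of 0 estimated reads in both groups. So 1 of 4 metallothionein genes was called, beside 0.0715% of all genes called higher.

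The 250 bases before the RefSeq start of Mt2 and Mt1 are shown because metallothionein genes are known for metal response elements, short sites bound by the zinc-sensing factor MTF-1. Capitals mark the core TGCNCNC of that element on either strand, and cores that overlap would form 1 run. The Mt2 stretch is chr8:94172368-94172617 and the Mt1 stretch is chr8:94178839-94179088, both on the plus strand of GRCm38.p6.
Mt2: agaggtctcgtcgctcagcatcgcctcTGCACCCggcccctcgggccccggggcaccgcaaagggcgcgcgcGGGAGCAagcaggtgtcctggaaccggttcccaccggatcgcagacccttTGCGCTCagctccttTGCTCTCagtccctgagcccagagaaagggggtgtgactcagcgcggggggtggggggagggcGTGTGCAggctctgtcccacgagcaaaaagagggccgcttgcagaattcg
Mt1: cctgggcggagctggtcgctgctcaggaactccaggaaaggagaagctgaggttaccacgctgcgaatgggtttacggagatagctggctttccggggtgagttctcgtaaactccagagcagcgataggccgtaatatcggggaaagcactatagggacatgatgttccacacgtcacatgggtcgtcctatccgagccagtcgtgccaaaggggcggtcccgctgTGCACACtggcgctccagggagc
The Mt2 stretch holds 5 cores, between 223 and 50 bases before the start, and the Mt1 stretch holds 1. Of 32851 promoters of this length, 44.4% hold at least 1 core and 4.65% hold 3 or more. A match of letters is not by itself a bound site. Each count covers only the 250 bases before the RefSeq start used and says nothing about elements elsewhere, so the counts do not rank Mt2 and Mt1.

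Of the gene lists, the one with the most called members held 30 genes known to be induced by glucocorticoid. Like the other lists, it was chosen with earlier results of these data known, so its counts are a description. Of the 30, 5 were called higher and 0 lower, beside 0.0715% of all genes called higher. Among the 9483 genes with at least 50 estimated reads, 12 were called higher. A positive change was seen in 25 of the 30, beside 4200 of the 9483 genes with at least 50 estimated reads. Their median change was 0.35, beside 0.0 for all genes, and 13 were higher and 0 lower at p under 0.05 without adjustment, beside 3.75% of all genes higher. When each VMH library was left out in turn, 1 to 5 of the 30 were called and the median stayed between 0.30 and 0.42.

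Cdkn1a, which encodes the cyclin-dependent kinase inhibitor p21, had the largest change of all. Its fed libraries had a lowest value of 0.474, a median of 3.23 and a highest of 9.94 RPKM, and its fasted libraries had 7.77, 9.45 and 25.6 RPKM. Only 3 of the 6 fasted libraries were above the highest fed library, VMH-Fed-2. The mean was 3.04-fold higher (1.58 ± 0.36, adjusted p = 0.0897). The highest fasted value came from VMH-Fast-2, and without that library the change was 1.36 (adjusted p = 0.262). The call was lost in 8 of the 12 fits without 1 library, in some of them without a fed library.

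Plin4, perilipin 4, a coat protein of lipid droplets, was at 0.487, 0.607 and 0.962 RPKM in fed mice and at 0.945, 2.83 and 4.87 RPKM in fasted mice. All but 1 of the fasted libraries lay above the fed range (1.12 ± 0.23, adjusted p = 0.0555). Its fed values stood for few reads, a median of 6.45 against 35.3 in fasted mice. It lost its call in 5 of the 12 fits without 1 library (adjusted p up to 0.121, without VMH-Fast-3).

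Hif3a, a subunit of the hypoxia-inducible factors that is also a known glucocorticoid target, was at 0.529, 1.34 and 2.89 RPKM in fed mice and at 2.10, 3.99 and 7.90 RPKM in fasted mice, where 4 of 6 libraries were above the fed range (1.16 ± 0.27, adjusted p = 0.0974). Without VMH-Fast-1 the adjusted p was 0.214, and 9 of the 12 fits without 1 library lost the call.

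Bcl6, a transcriptional repressor, was at 4.93, 6.85 and 8.17 RPKM in fed mice and at 10.9, 13.2 and 20.6 RPKM in fasted mice. The groups did not overlap, and the mean was 2.13-fold higher (0.97 ± 0.18, adjusted p = 0.029). The gene stayed called whichever VMH library was left out, with an adjusted p of at most 0.0658.

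Mfsd2a, a transporter that carries lysophosphatidylcholine with docosahexaenoic acid into the brain and sits in the endothelium of its vessels, was at 1.63, 6.45 and 11.7 RPKM in fed mice and at 11.9, 13.5 and 29.9 RPKM in fasted mice. The groups met without overlap, and the change was 1.27 ± 0.28 (adjusted p = 0.0853). Without VMH-Fast-2, which held the highest value, the change was 1.09 (adjusted p = 0.261). In 7 of the 12 fits without 1 library the call was lost. Of the 22 tested endothelial and mural cell markers, Mfsd2a included, 15 had a negative change, beside 5280 of the 9483 genes with at least 50 estimated reads. Their summed level ran from 167 to 289 RPKM in fed and from 156 to 196 RPKM in fasted mice. The highest fed sum was that of VMH-Fed-1, and the next was 208 RPKM. The part of vessel content in the rise of Mfsd2a was not tested.

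Among members that did not pass, Ucp2, a mitochondrial uncoupling protein, changed by 0.53 ± 0.13 (adjusted p = 0.163) and Fam107a, a stress-responsive actin-bundling protein, by 0.41 ± 0.11 (adjusted p = 0.21), the latter with no overlap between groups. Sgk1, a kinase that is a classic target of this receptor, went from a median of 4.48 to 8.24 RPKM (0.82 ± 0.29, adjusted p = 0.409), with a change of -0.29 within the first batch and 1.5 and 1.25 in the others. Fkbp5, a co-chaperone of the receptor and another classic target, had medians of 4.98 and 4.97 RPKM (0.10 ± 0.29, adjusted p = 1). The letters AGAACA, a half-site of the glucocorticoid receptor, occur on either strand in 16.1% of promoters of 250 bases. They were found for 5 of the 27 list members with a promoter in the table, among them Bcl6 and Sgk1, and no match in such a window says nothing about sites elsewhere.

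**Figure D2:**
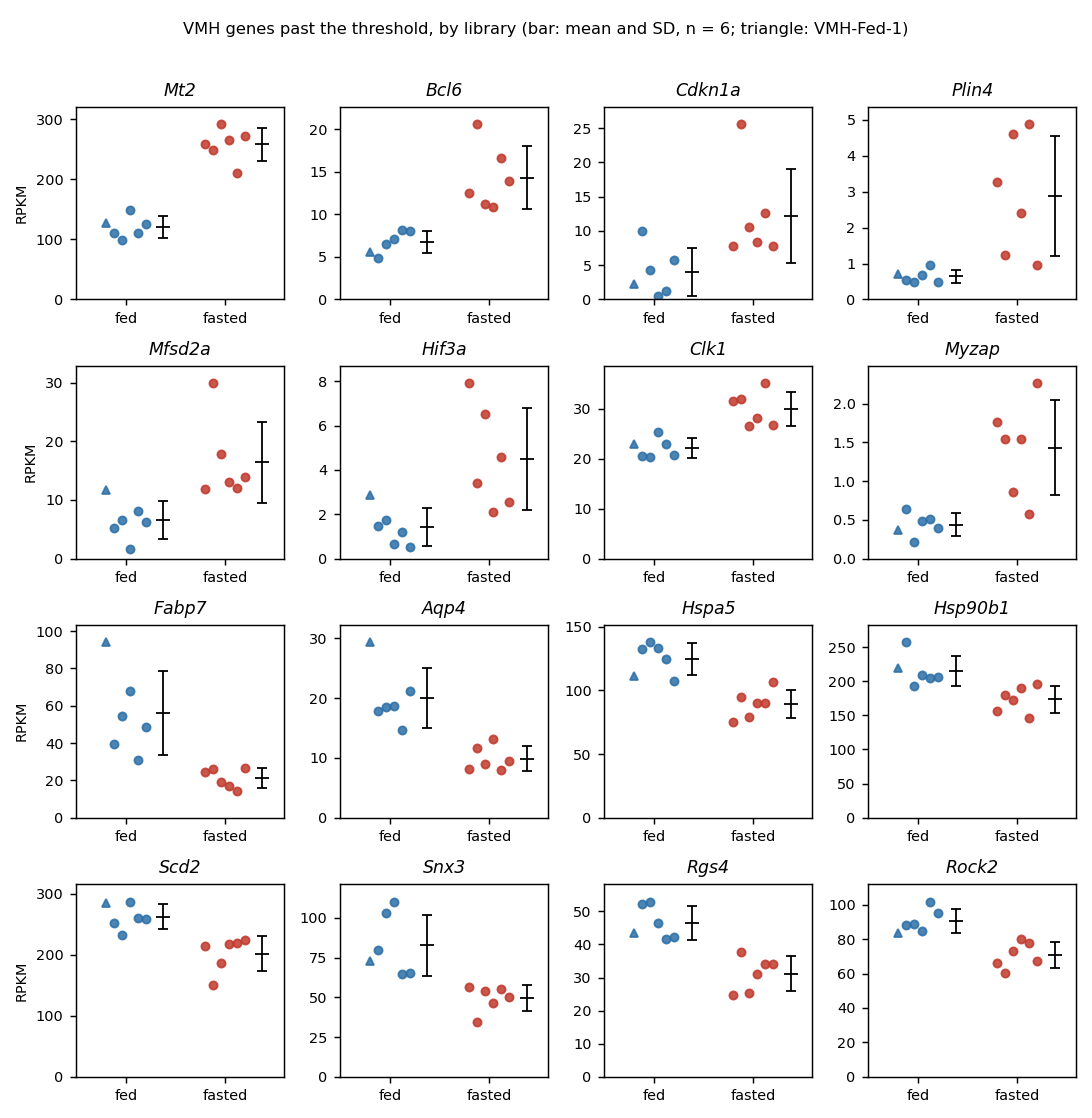
RPKM of 16 called genes in each VMH library, fed in blue and fasted in red, on linear axes from 0; the bar beside each group is the mean with its SD (n = 6) and the triangle is VMH-Fed-1. Mt2, Bcl6 and Clk1 show no overlap between the groups, Cdkn1a and Mfsd2a have a single high fasted library, and the highest fed value of Fabp7 and of Aqp4 is VMH-Fed-1.

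The other genes that rose came from several processes. Clk1, a kinase that phosphorylates splicing factors, was at 20.2, 21.8 and 25.3 RPKM in fed mice and at 26.4, 29.8 and 35 RPKM in fasted mice, with no overlap. Its change was small and precise, 0.42 ± 0.08 (adjusted p = 0.0249), and rested on 3470 estimated reads in fed and 5414 in fasted mice. Rsrp1, an arginine- and serine-rich protein, also rose without overlap, from a median of 41.8 to 57.9 RPKM (0.45 ± 0.10, adjusted p = 0.0897), and lost its call in 10 of the 12 fits without 1 library (adjusted p up to 0.209, without VMH-Fed-1).

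Trit1, an enzyme that modifies transfer RNA, went from a median of 5.88 to 13.5 RPKM with no overlap (1.01 ± 0.21, adjusted p = 0.0576). Rab4a, a small GTPase of endosomal recycling, went from 19.7 to 31.4 RPKM with no overlap (0.90 ± 0.20, adjusted p = 0.0817). Rin2, an exchange factor for the endosomal GTPase Rab5, went from 3.45 to 7.39 RPKM and the groups overlapped (0.99 ± 0.22, adjusted p = 0.0828). All 3 calls were lost without VMH-Fed-4, and the adjusted p rose to at most 0.124 for Trit1 (without VMH-Fed-4), 0.214 for Rab4a (without VMH-Fed-1) and 0.208 for Rin2 (without VMH-Fast-2).

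Myzap, a protein of cell junctions, went from a median of 0.439 to 1.55 RPKM (0.72 ± 0.12, adjusted p = 0.0208), and 5 of 6 fasted libraries were above the fed range. Tekt4, a structural protein of cilia and flagella, was near its no-read value in the fed VMH, with 3 estimated reads in all 6 fed libraries against 85 in the fasted libraries. Per read of depth that is a ratio of 23.7, with an exact 95% interval of 7.83 to 117 that covers counting error only, and every fasted library was above every fed library (1.14 ± 0.21, adjusted p = 0.029). Both genes stayed called whichever VMH library was left out.

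AI837181, a protein-coding gene without a descriptive name, went from a median of 9.34 to 21.5 RPKM (1.07 ± 0.24, adjusted p = 0.0828). BC039966, annotated as an antisense RNA, went from 2.17 to 5.74 RPKM (1.34 ± 0.31, adjusted p = 0.098), with a change of 2.47 in the first batch and 0.95 and 0.60 in the others. Reads carried no strand, so an antisense gene and its partner could not be separated where they overlap. Lrif1, a nuclear protein that binds nuclear receptors, went from 3.46 to 5.55 RPKM (0.61 ± 0.14, adjusted p = 0.0991). These 3 genes lost their call in 9, 10 and 8 of the 12 fits without 1 library, with an adjusted p of up to 0.163 (without VMH-Fed-4), 0.263 and 0.296 (both without VMH-Fast-2).

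Some calls rest on very few reads. In 12 of the 44 genes the median was under 10 estimated reads in both groups, 8 among the genes that rose and 4 among those that fell. Gprc5d, Gm13420, Gm20528, Mup20 and Rpl21-ps13 had 0 estimated reads in the 6 fed libraries together and 41, 14, 20, 7 and 4 in the 6 fasted libraries. Gm4886 had 1 against 34. ENSMUSG00000084322 had 1 against 12 and ENSMUSG00000097581 had 4 against 23. Among the genes that fell, Olfr714, an odorant receptor, had 36 reads in the fed and 0 in the fasted libraries, Gm24270, a predicted microRNA gene, had 19.4 against 5.69, and Il4, a cytokine, had 60.8 against 22.8. Sptssb also belongs here and is described with the genes of lipid synthesis. No fold is given for these genes. All 50-base stretches of Gm24270 and 91.6% of those of Gm20528 recur in other genes.

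Among the genes that fell were the 2 main chaperones of the endoplasmic reticulum (ER). The unfolded protein response is the program by which cells raise ER chaperones and folding enzymes when secretory proteins accumulate, and it works in part through the ER stress element in promoters. Of 28 genes on this list, 2 fell and 0 rose, beside 0.0596% of all genes that fell, 23 had a negative change, and the median change was -0.15. For scale, 9483 genes with a mean of at least 50 estimated reads had a median change of -0.03, and 5280 of them had a negative change.

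Hspa5, which encodes BiP, the chaperone that sets the response off when it is drawn to unfolded protein, was at 107, 128 and 138 RPKM in fed mice and at 75, 90 and 106 RPKM in fasted mice. The groups met without overlap, with a fed mean 1.39-fold that of fasted mice (-0.48 ± 0.11, adjusted p = 0.0828). Hsp90b1, which encodes the ER chaperone GRP94, was at 193, 207 and 257 RPKM in fed mice and at 145, 176 and 196 RPKM in fasted mice (-0.31 ± 0.07, adjusted p = 0.0817). Only the highest fasted library of Hsp90b1 reached into the fed range. The changes within the 3 batches were -0.52, -0.67 and -0.24 for Hspa5 and -0.50, -0.15 and -0.28 for Hsp90b1.

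Both calls were near the threshold: without VMH-Fed-2 the adjusted p was 0.184 for Hspa5 and 0.216 for Hsp90b1, and 9 and 7 of the 12 fits without 1 library lost them. Members with a change of similar or larger size that did not pass were Sdf2l1 (-0.86 ± 0.32, adjusted p = 0.45), Pdia4 (-0.62 ± 0.19, adjusted p = 0.312) and Calr (-0.42 ± 0.13, adjusted p = 0.312), all of them ER luminal chaperones or folding enzymes. Transducers of the response had changes near 0, at 0.07 for Atf6 and 0.09 for Ern1 (adjusted p = 1 for both), and Eif2ak3 changed by 0.22 (adjusted p = 0.93).

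The 250 bases before the RefSeq start of Hspa5 and Hsp90b1 are shown because both hold the ER stress element, which is CCAAT and CCACG with 9 bases between them, in capitals here on either strand. This motif was searched after the calls were known. The Hspa5 stretch is chr2:34771840-34772089 on the plus strand and the Hsp90b1 stretch is chr10:86705445-86705694 on the minus strand of GRCm38.p6.
Hspa5: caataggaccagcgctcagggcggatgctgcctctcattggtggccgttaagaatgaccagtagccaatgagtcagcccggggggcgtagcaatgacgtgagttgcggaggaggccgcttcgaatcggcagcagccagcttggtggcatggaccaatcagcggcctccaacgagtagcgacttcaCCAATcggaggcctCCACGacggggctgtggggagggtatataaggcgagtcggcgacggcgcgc
Hsp90b1: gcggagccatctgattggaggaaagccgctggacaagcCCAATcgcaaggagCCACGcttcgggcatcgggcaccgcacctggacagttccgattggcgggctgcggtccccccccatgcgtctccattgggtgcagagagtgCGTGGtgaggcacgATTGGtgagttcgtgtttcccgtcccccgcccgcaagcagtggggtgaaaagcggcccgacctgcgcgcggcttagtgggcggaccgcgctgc
Hspa5 holds 1 element, 65 bases before the start. Hsp90b1 holds 2, at 212 and 107 bases before the start, the nearer of them on the other strand. Only 0.113% of 32851 promoters hold it, and 8 of the 23 list members with a promoter in the table do, so the list is one of genes known for this element. The sequence is a description and was not tested against the change.

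The cytosolic and mitochondrial chaperones, which fold proteins outside the ER and are the classic heat-shock genes, had the lowest median change of all 24 lists, -0.31 over 25 genes. None of the 25 was called. Without adjustment 14 were lower and 1 was higher at p under 0.05, beside 7.08% lower and 4.05% higher among the 9483 genes with at least 50 reads. The highly expressed members moved by similar small amounts: Hsp90aa1 had medians of 173 RPKM fed and 148 RPKM fasted (-0.23 ± 0.07, adjusted p = 0.312), Hspd1 68.8 and 58.4 RPKM (-0.39 ± 0.12, adjusted p = 0.312) and Hsph1 157 and 129 RPKM (-0.43 ± 0.12, adjusted p = 0.248). For Hsp90aa1, Hspd1 and Hspa4l every fasted library was below every fed library, and 0.277% of all genes had no overlap in either direction. The list also holds genes that are not chaperones: Hsf1, Hsf2, Cirbp and Rbm3. Of the 25 genes 3 had a positive change. The largest was that of Cirbp, the cold-inducible RNA-binding protein, with medians of 15.9 and 22.1 RPKM (0.79 ± 0.33, adjusted p = 0.553). Rbm3, the other cold-inducible protein on the list, changed by 0.37 ± 0.19 (adjusted p = 0.617). The list median lay between -0.35 and -0.25 when each VMH library was left out, and was -0.26 after quantile normalization.

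**Figure D3:**
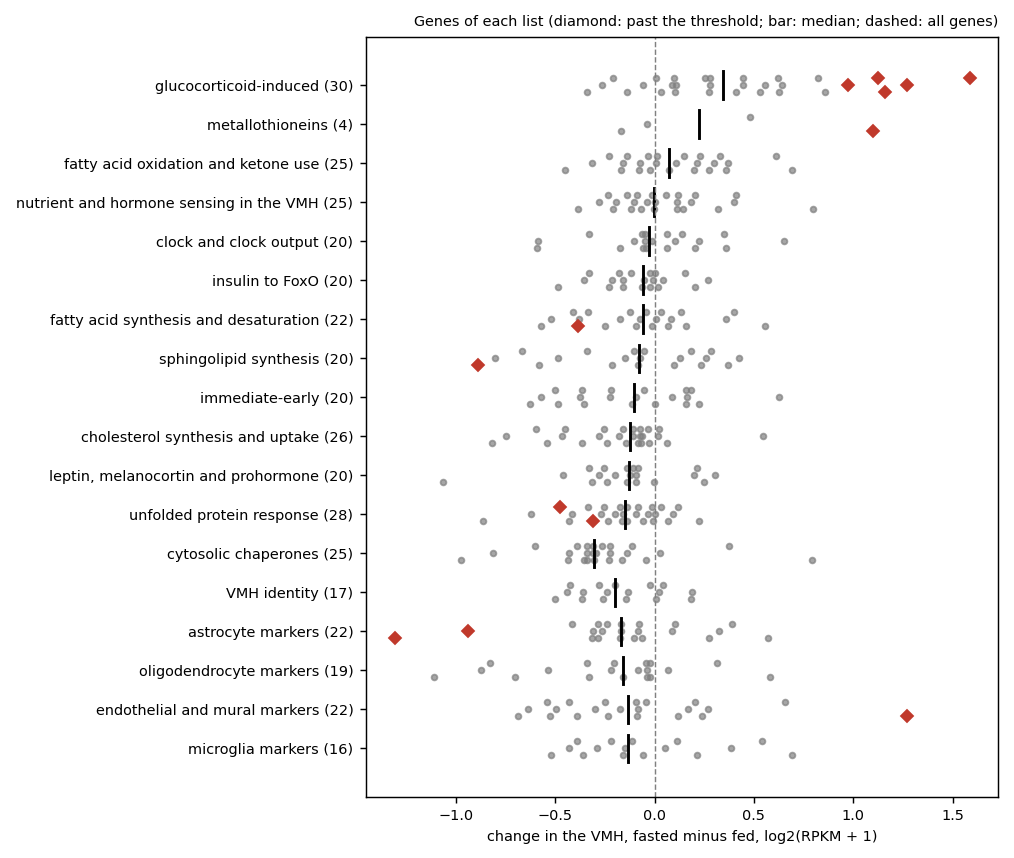
Change of each gene in 18 lists, with lists on the vertical axis (number of tested genes in brackets) and the change from fed to fasted VMH in log2(RPKM + 1) units on the horizontal axis; red diamonds are called genes, black bars are list medians and the dashed line is the median of all genes, 0.0. The glucocorticoid-induced list has 5 called genes on the right and a median of 0.35, and the cytosolic chaperones have a median of -0.31 and 0 called genes.

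Of the genes of lipid synthesis, Scd2 and Sptssb fell. Scd2, the main stearoyl-CoA desaturase of the brain, which makes monounsaturated fatty acids, was at 232, 259 and 287 RPKM in fed mice and at 150, 216 and 224 RPKM in fasted mice. The groups did not overlap, and the fed mean was 1.3-fold that of fasted mice (-0.39 ± 0.08, adjusted p = 0.0555). Without VMH-Fast-2, the lowest library, the change was -0.30 (adjusted p = 0.128), and without VMH-Fed-1 it was -0.36 (adjusted p = 0.125).

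Scd2 was the 1 called gene of 22 on the list of fatty acid synthesis and desaturation, beside 0.0596% of all genes called lower. The median of the list was -0.06 and, without VMH-Fed-1, 0.0028. The other desaturases had changes in the same direction without passing: Fads1 (-0.52 ± 0.15, adjusted p = 0.24), Fads2 (-0.57 ± 0.21, adjusted p = 0.456) and Scd1 (-0.38 ± 0.13, adjusted p = 0.407). Fasn, fatty acid synthase, changed by -0.34 ± 0.11 (adjusted p = 0.396).

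Of 26 genes of cholesterol synthesis and uptake, 0 were called, with a median of -0.12. A negative change was seen in 22, beside 5280 of the 9483 genes with at least 50 estimated reads. Without adjustment 7 were lower and 0 higher at p under 0.05, beside 3.56% of all genes and 7.08% of those with at least 50 reads that were lower. The largest changes were those of Nsdhl (-0.82 ± 0.24, adjusted p = 0.3) and Idi1 (-0.75 ± 0.21, adjusted p = 0.241), a late enzyme and an isomerase of the isoprenoid part of the pathway, and Hmgcs1, its HMG-CoA synthase, had medians of 62.8 and 54.7 RPKM (-0.24 ± 0.11, adjusted p = 0.617). The summed level of the 26 genes ran from 510 to 561 RPKM in fed and from 410 to 488 RPKM in fasted mice, so the sums did not overlap.

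Of 20 genes of sphingolipid synthesis 1 fell, beside 0.0596% of all genes called lower. Sptssb, a small subunit that steers serine palmitoyltransferase to longer substrates, was at 1.23, 2 and 4.91 RPKM in fed mice and at 0.573, 0.839 and 1.12 RPKM in fasted mice, with no overlap (-0.89 ± 0.17, adjusted p = 0.029). It rested on 90 reads in all fed and 12 in all fasted libraries, and VMH-Fed-5 and VMH-Fed-4 held 44 and 26 of the fed reads. Sptssb is among the called genes with a median under 10 estimated reads in both groups. It stayed called whichever VMH library was left out, which with so few reads says little about the size of the change. Sptlc3, another subunit of the same enzyme, changed by -0.80 ± 0.24 (adjusted p = 0.312).

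**Figure D4:**
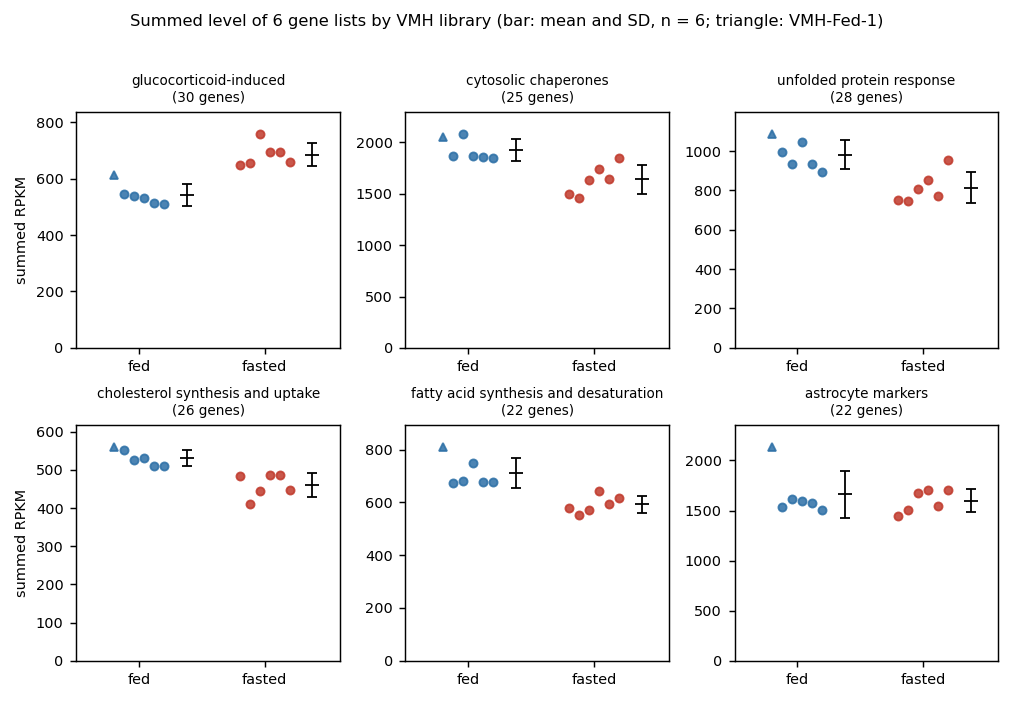
Summed RPKM of 6 gene lists in each VMH library, fed in blue and fasted in red, on axes from 0; bars are mean and SD (n = 6) and the triangle is VMH-Fed-1. The sums do not overlap for the glucocorticoid-induced, cholesterol and fatty acid synthesis lists, and overlap for both chaperone lists. In the glucocorticoid-induced sum the 5 called genes are a small part. Their fasted medians are at most 13.5 RPKM each, beside 677 RPKM for the sum. The called gene Scd2 makes up a large part of the fatty acid sum, with medians of 259 RPKM fed and 216 RPKM fasted. The medians of that sum are 679 and 587 RPKM, so its separation is not one of the whole list, whose median change is -0.06. VMH-Fed-1 is alone at the top of the astrocyte markers at 2136 RPKM.

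The largest falls included 2 astrocyte genes. Fabp7, the brain fatty acid-binding protein of radial glia and astrocytes, was at 30.9, 51.7 and 93.9 RPKM in fed mice and at 14, 21.7 and 26.7 RPKM in fasted mice. Aqp4, the water channel of astrocyte endfeet, was at 14.7, 18.6 and 29.3 RPKM in fed mice and at 8.01, 9.26 and 13.1 RPKM in fasted mice. In both genes every fasted library was below every fed library. The fed means were 2.64-fold and 2.03-fold those of fasted mice (-1.31 ± 0.27, adjusted p = 0.0555, and -0.94 ± 0.19, adjusted p = 0.0477).

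The highest value of both genes came from VMH-Fed-1. Without it the changes were -1.14 (adjusted p = 0.133) and -0.83 (adjusted p = 0.114), so neither was called. Fabp7 also lost its call without VMH-Fast-4 and without VMH-Fed-4. Of all 22 astrocyte markers 2 were called, both lower, beside 0.0596% of all genes called lower. A negative change was seen in 16 of the 22, beside 5280 of the 9483 genes with at least 50 estimated reads. Their median was -0.17 and, without VMH-Fed-1, -0.090. The summed level of the list ran from 1504 to 2136 RPKM in fed and from 1445 to 1707 RPKM in fasted mice, and without VMH-Fed-1 the highest fed sum was 1618 RPKM. Each of the 22 had a median of at least 29.8 estimated reads in fed and 34.7 in fasted mice. Slc1a2, the main glutamate transporter, changed by -0.26 ± 0.07 (adjusted p = 0.24), and Agt, angiotensinogen, by 0.57 ± 0.19 (adjusted p = 0.357), the latter with every fasted library above every fed library. The part of astrocyte content in the falls of Fabp7 and Aqp4 was not tested.

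Qk, an RNA-binding protein that regulates splicing in glia, went from a median of 51.1 to 36.1 RPKM (-0.47 ± 0.10, adjusted p = 0.0555), and without VMH-Fed-1 the adjusted p was 0.151. Among 19 oligodendrocyte markers 0 were called (0 higher and 5 lower without adjustment). Of the 19, 16 had a negative change, beside 5280 of the 9483 genes with at least 50 estimated reads. The sums of the list ran from 343 to 550 RPKM in fed mice, with VMH-Fed-1 highest and the next at 454 RPKM. In fasted mice they ran from 312 to 415 RPKM. Mag, a myelin protein, had the largest change of that list (-1.11 ± 0.42, adjusted p = 0.478).

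The remaining genes that fell had varied functions. Snx3, a sorting nexin that returns cargo from endosomes, was at 64.8, 76.4 and 110 RPKM in fed mice and at 34.3, 52 and 56.3 RPKM in fasted mice with no overlap (-0.72 ± 0.15, adjusted p = 0.0555). Rgs4, which shortens signalling by G protein-coupled receptors, was at 41.7, 45 and 53 RPKM in fed mice and at 24.8, 32.6 and 37.7 RPKM in fasted mice with no overlap (-0.57 ± 0.12, adjusted p = 0.0705). Rock2, a kinase that acts on the cytoskeleton, went from a median of 88.6 to 70.2 RPKM with no overlap (-0.35 ± 0.07, adjusted p = 0.0555). They lost their call in 5, 7 and 2 of the 12 fits without 1 library, with an adjusted p of up to 0.15 for Snx3 and Rock2 (without VMH-Fast-2) and 0.165 for Rgs4 (without VMH-Fed-2).

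Ppp2r5e, a regulatory subunit of protein phosphatase 2A, went from 20.9 to 14.3 RPKM (-0.61 ± 0.12, adjusted p = 0.0477). Magt1, a subunit of the ER complex that attaches sugars to proteins, went from 5.43 to 3.07 RPKM with no overlap (-0.60 ± 0.13, adjusted p = 0.0817). Ubxn2a, which binds the ubiquitin-handling ATPase p97, went from 20.8 to 13.1 RPKM (-0.63 ± 0.14, adjusted p = 0.0919). Ddhd1, a phospholipase, and Pcdh17, a protocadherin, changed by -0.48 ± 0.11 (adjusted p = 0.0937) and -0.43 ± 0.09 (adjusted p = 0.0817). Of the 12 fits without 1 library, 3 lost Ppp2r5e, 8 Magt1, 9 Ubxn2a, 10 Ddhd1 and 6 Pcdh17. The adjusted p reached 0.122 and 0.218 for Ppp2r5e and Pcdh17 without VMH-Fast-2, 0.162 and 0.26 for Magt1 and Ddhd1 without VMH-Fed-2, and 0.261 for Ubxn2a without VMH-Fed-1.

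The falls of 2 genes are uncertain in their source. Ell3, an elongation factor of transcription, went from 20.6 to 8.52 RPKM with no overlap (-1.24 ± 0.25, adjusted p = 0.0555), and 65.6% of its exon bases are shared with Serinc4. Ptp4a1, a tyrosine phosphatase, went from 19.7 to 14.1 RPKM (-0.56 ± 0.12, adjusted p = 0.0705), and 70.8% of its exon bases are shared with a second annotated gene of the same symbol. Its change was -1.22, -0.45 and -0.0011 in batches 1, 2 and 3. Without VMH-Fast-2 the adjusted p was 0.128 for Ell3 and 0.211 for Ptp4a1.

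Genes that give the VMH its identity and genes of the leptin and melanocortin pathway, which carries the signal of fat stores to hypothalamic neurons, were looked at as whole lists. None of the 17 VMH genes was called, 1 was lower and 0 were higher at p under 0.05 without adjustment, and their median was -0.20. The median was -0.072 without VMH-Fast-2, -0.14 without VMH-Fast-1 and at its lowest -0.27, without VMH-Fast-5. Nr5a1 had medians of 21.3 and 25.0 RPKM in fed and fasted mice (0.18 ± 0.21), Fezf1 101 and 107 RPKM (0.04 ± 0.28), and both had an adjusted p of 1. Adcyap1, the neuropeptide PACAP made by many VMH neurons, had medians of 91.8 and 77.9 RPKM (-0.42 ± 0.26, adjusted p = 0.7). Bdnf, a growth factor of this nucleus that restrains feeding, had 5.93 and 3.81 RPKM (-0.24 ± 0.24, adjusted p = 0.973).

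Of 20 leptin, melanocortin and prohormone genes 0 were called (1 higher and 2 lower without adjustment). A negative change was seen in 16, beside 5280 of the 9483 genes with at least 50 estimated reads. Lepr, the leptin receptor, had medians of 1.93 and 2.63 RPKM (0.30 ± 0.16, adjusted p = 0.617). Pcsk1, a protease that cuts prohormones, had 8.38 and 8.08 RPKM (-0.08 ± 0.19, adjusted p = 1), and Nhlh2, a transcription factor tied to it, had 1.14 and 0.80 RPKM (-0.14 ± 0.27, adjusted p = 1). The change of Nhlh2 rests on a median of 14.6 estimated reads in fed and 18.8 in fasted mice.

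Peptide genes of the neighbouring ARC were low in the VMH. Agrp and Npy, which drive feeding, had medians of 2.76 and 7.15 RPKM in the fed and 2.59 and 7.36 RPKM in the fasted VMH, and Pomc, the precursor of melanocortins, had 21.1 and 16.7 RPKM (adjusted p = 1 for the 3 genes). The highest Npy value, 41.5 RPKM, was in VMH-Fed-1. Cartpt, a peptide precursor made in the ARC and in lower amount here, was at 21.1, 25.6 and 47.8 RPKM in fed mice and at 8.14, 13 and 23 RPKM in fasted mice (-1.06 ± 0.27, adjusted p = 0.149). The summed level of the 9 ARC markers ran from 54.3 to 100.1 RPKM in the fed and from 35.5 to 79.3 RPKM in the fasted VMH. The part of ARC tissue in the Cartpt values was not tested.

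None of the genes was called on the lists of fatty acid oxidation and ketone use (25 genes, median 0.07), nutrient and hormone sensing (25 genes, median -0.00), the insulin to FoxO pathway (20 genes, median -0.06), the clock (20 genes, median -0.03) or immediate-early genes of neuronal activity (20 genes, median -0.11). On these 5 lists 7 genes were higher and 7 lower at p under 0.05 without adjustment, and the medians of the clock and the sensing lists turned positive in 9 of the alternatives each. None was called among the markers of microglia (16 genes, median -0.13, and 0.021 without VMH-Fed-1), tanycytes and ependyma (14 genes, median -0.07), glutamate and GABA neurons (13 genes, median -0.05), blood (5 genes, median 0.12, and 0.21 without VMH-Fed-1), or the dorsomedial and lateral (8 genes, median 0.17) and paraventricular (7 genes, median -0.03) hypothalamus. Named by the size of their change after the values were seen, Kcnj11, a subunit of the ATP-sensitive potassium channel that couples glucose to firing, changed by 0.80 ± 0.35 (adjusted p = 0.569). Arntl, a core clock factor, changed by 0.65 ± 0.23 (adjusted p = 0.43).

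The fasting change of the VMH was also set against the mean change of the ARC, the dorsomedial hypothalamus (DMH) and the PVN, which were captured from the same kind of animals. The test of this difference called 0 of 33579 genes (0.0%), and 1727 genes, 5.14%, were at an unadjusted p under 0.05. The count stayed at 0 in the other settings tried, except that 1 or 2 genes were called in some fits without 1 VMH library. The nuclei of a study like this come from shared brains, and the labels do not say which libraries share one.

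Of the 44 genes called in the VMH, 5 were also called in at least 1 other nucleus: Mt2 in the ARC and the DMH, Cdkn1a and Scd2 in the ARC and the PVN, and Hif3a and Bcl6 in the PVN. For comparison, 0.0566% of all genes were called in the ARC, 0.0238% in the DMH and 0.0715% in the PVN. Mt2 changed by 1.09 in the ARC, 1.40 in the DMH and 0.71 in the PVN, and the VMH differed from their mean by 0.03 (adjusted p = 1). Scd2 changed by -0.42, -0.32 and -0.39 in the 3 nuclei. Cdkn1a changed by 1.92, 1.34 and 1.81.

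For other genes the VMH change was larger than in each other nucleus, without a difference that passed the test. Snx3 changed by 0.06, 0.09 and -0.15 in the ARC, DMH and PVN, and the VMH differed from their mean by -0.72 (adjusted p = 0.53). Myzap changed by -0.06, -0.08 and 0.41, with a difference of 0.63 (adjusted p = 0.41). Hspa5 changed by -0.04, -0.25 and -0.05, with a difference of -0.36 (adjusted p = 0.84). The cytosolic chaperone list had medians of -0.31, -0.18 and -0.31 in the ARC, DMH and PVN, and the glucocorticoid-induced list had 0.38, 0.55 and 0.62.

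**Figure D5:**
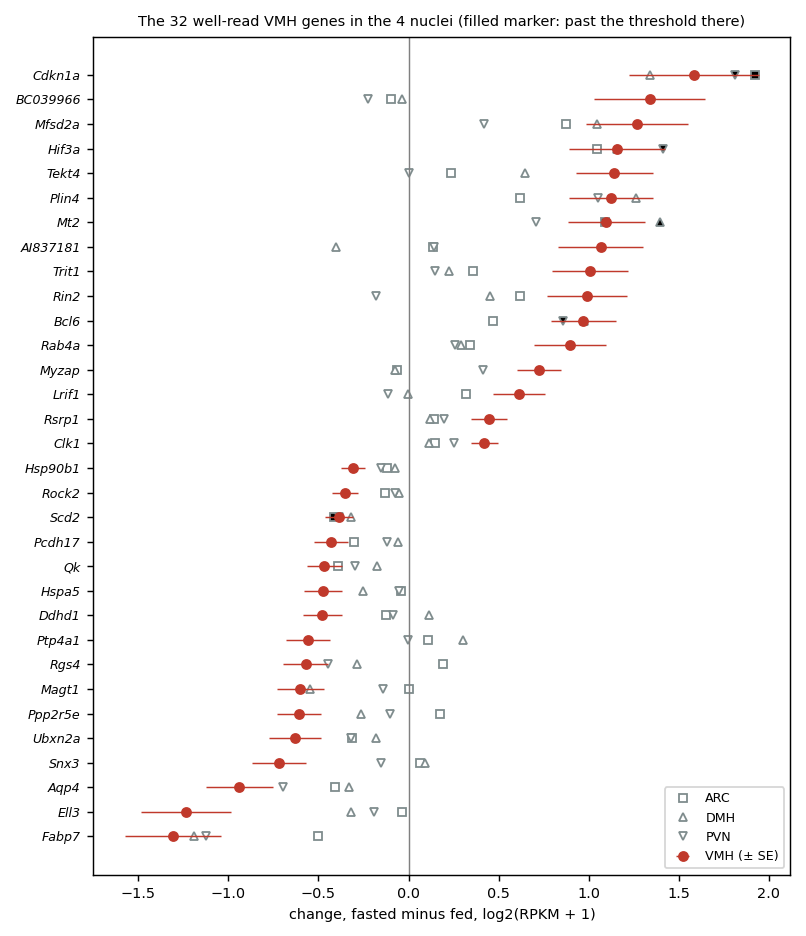
Change from fed to fasted in log2(RPKM + 1) units (horizontal axis) of the 32 called VMH genes with a median of at least 10 estimated reads in at least 1 group (vertical axis); red circles are the VMH with SE, and squares, upward and downward triangles are the ARC, DMH and PVN, filled where the gene was called there. Mt2, Cdkn1a, Hif3a, Bcl6 and Scd2 have a filled symbol, and the symbols of Snx3, Trit1 and Myzap in other nuclei lie nearer to 0 than those of the VMH.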

How the data were processed

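Nuclei were laser-captured from mouse brain sections. Per the labels and methods, RNA was amplified with NuGEN Ovation chemistry and sequenced as single-end reads without strand. The submitters' processing notes name CASAVA 1.7, TopHat2 2.0.11, Cufflinks 2.2.1, edgeR and limma with build GRCm38. The authors captured and prepared libraries in 3 batches and removed outlier samples. The deposited values are RPKM, calculated by the authors, for 37907 Ensembl IDs in 42 libraries.

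The table held 0 values equal to 0. In each of 3 sets of libraries, taken as the batches by inference since no label names them, 21982 genes shared a recurring lowest value. This lowest value was taken to mean no reads, and implies an added count of 5.00 reads in the mean library. In the VMH libraries 98.2% to 98.7% of low values were whole multiples of 1 read beyond this level (tolerance 0.05 reads). Exon lengths matched these values within 1% for 75.4% of 20457 genes, which gave depth. Depths and reads are therefore estimates, batch means had been removed from the values, and a fold understates the change of a low gene. The limma fit of all libraries had no batch term. It did not count these removed means, so its p-values can be too small. VMH libraries 1 and 2 of each state fell in the first such set, 3 and 4 in the second, and 5 and 6 in the third.

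Genes with RPKM of at least 1 in at least 4 libraries were kept. Since the value for no reads had a median of 1.60 RPKM over genes in the VMH libraries, this filter also kept genes without reads. Values were taken to log2(RPKM + 1) and fitted with limma 3.58.1 in R 4.3.3 on all 42 libraries with 8 group means and an intensity trend, since RPKM values cannot enter the count model of the study. Tests were two-sided, with Benjamini-Hochberg adjustment over all genes and calls at an adjusted p under 0.1. The fit was tested on simulated data. Symbols, positions and overlaps came from GENCODE M21, which matched 36049 IDs, and promoters from RefSeq on GRCm38.p6. Mean ± SD describes groups, and 1 value (depth) had an exact permutation test.

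The genes, lists and tests were chosen with earlier results of these data known. Named were all called genes, the 12 with the largest rise and the 12 with the largest fall with values, called members of lists, and 20 fixed genes. Alternatives were other pseudocounts (0.1 and 0.5), filters, scalings and weights, a batch or depth term, VMH libraries only, the replicate block, and leaving out each VMH library.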

Additional observations from a re-analysis of the deposited data

Results flagged for a closer look

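In 116 groups of 6 libraries (58 named genes in fed and in fasted mice), 11 had a single library far from the others by Dixon's test, where chance gives about 1 in 20 groups, or 5.8. Of these, 7 concern called genes. In VMH-Fast-2, at a depth of 2.06 M reads, Cdkn1a was at 25.6 RPKM against 7.77 to 12.7 in the other fasted libraries, and Mfsd2a was at 29.9 against 11.9 to 17.8 RPKM. Without that library neither gene was called (adjusted p = 0.262 and 0.261). Ddhd1 was at 24.1 RPKM in VMH-Fed-2 against 15.6 to 18.4 in the other fed libraries, and without it the adjusted p was 0.26. The other called genes kept their call without the library concerned: Tekt4 at 1.18 RPKM in VMH-Fed-3, AI837181 at 15.8 in VMH-Fed-1, and ENSMUSG00000084322 at 3.12 and ENSMUSG00000097581 at 1.06 in VMH-Fed-5.

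Npy was at 41.5 RPKM in VMH-Fed-1 against 4.20 to 11.5 in the other fed libraries. Agrp was at 8.82 RPKM in VMH-Fed-2 against 2.03 to 3.58 and, in fasted mice, at 6.17 RPKM in VMH-Fast-4 against 2.11 to 2.89. Mt1 was at 236 RPKM in VMH-Fed-4 against 129 to 157 in the other fed libraries, and without it its change was 0.60 (adjusted p = 0.156).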

How the results depend on the processing

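The count of 44 called genes was 34 to 57 under other pseudocounts, filters, scalings, variance settings and a depth term, 44 without the shallowest library of each state (chosen after seeing the data, with 17 of the 44 genes shared), 24 with a batch term, 16 with array weights, 10 at an adjusted p under 0.05, 1 with the VMH libraries alone (Mt2), and 16 to 64 without 1 VMH library. The count of genes whose change differed from the other nuclei was 0 in all these settings, and 0 to 2 without 1 VMH library. The VMH identity count stayed at 16 of 17, and the depth difference kept its direction and its side of the threshold. Deviations of same-numbered fasted and fed VMH libraries had correlations from -0.095 to -0.045. This cannot show which libraries share an animal, because a fasted and a fed library come from different brains and batch means had been removed. Sharing of brains between nuclei was not examined. With the replicate block 17 genes were called over all libraries (16 of them among the 44) and, by limma over the VMH libraries alone, 0, with 1260 at an unadjusted p under 0.05. Among called genes, ENSMUSG00000097581 changed direction in 1 batch (-0.11). Of the uncalled genes, those whose sign turned when 1 VMH library was left out had ranges of -0.080 to 0.37 for Nr5a1, -0.088 to 0.14 for Fezf1, -0.50 to 0.11 for Npy, -0.30 to 0.11 for Agrp, -0.22 to 0.022 for Pcsk1, -0.28 to 0.080 for Nhlh2 and -0.058 to 0.28 for Fkbp5. Shallow libraries limit genes with few reads.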
